A study of Mus musculus with 18 samples.

Results

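The 9 genes described here store, carry, import or export iron or take heme apart: *Fth1*, *Ftl1*, *Slc11a1*, *Slc11a2*, *Slc40a1*, *Cp*, *Trf*, *Tfrc* and *Hmox1*. They were picked by name and not by a threshold on a measured value, though with earlier results of these data known, from a table of 116873 transcripts that come under 35960 genes. The 9 genes had 76 transcripts in that table, of which 68 had at least 1 read, and the reads of all transcripts of a gene were added up. RNA came from untreated mice aged 10 months, 3 of them *Atxn2*-CAG100-KIN and 3 WT, and each brain was divided into an astrocyte, a microglia and a neuron fraction, which gave 18 libraries, 3 for each fraction and genotype. KIN mice were homozygous for a CAG repeat expansion knocked into their own *Atxn2* gene, the gene affected in spinocerebellar ataxia type 2, so every cell type carried it, and the WT mice were littermates, all on a C57BL/6 background. The fractions were taken from a brain suspension with antibody-coated magnetic beads, in sequence, against CD11b for microglia and ACSA-2 for astrocytes, and neurons were what remained after other cells had been held back. Such fractions are enrichments and not pure cell types, and in bulk RNA fewer cells of a type and less RNA per cell cannot be told apart.

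Iron is held inside cells in ferritin, a hollow shell built of heavy chains (FTH1), which oxidize iron, and light chains (FTL1), which help to lay it down as mineral. Iron arrives bound to transferrin (*Trf*), is taken up through the transferrin receptor (*Tfrc*) and crosses the endosomal membrane through DMT1 (*Slc11a2*). Its relative NRAMP1 (*Slc11a1*) sits in the phagosomes of macrophages and microglia and moves iron and manganese out of them. Ferroportin (*Slc40a1*) is the known iron exporter, ceruloplasmin (*Cp*) oxidizes the iron that leaves, and heme oxygenase 1 (*Hmox1*) opens the heme ring and frees its iron. In the brain, oligodendrocytes are known for their iron content and for making transferrin, and microglia for taking up debris rich in iron and heme.

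Some of these mRNAs carry an iron-responsive element, a short hairpin bound by the iron regulatory proteins when iron is scarce. In a 5′ untranslated region (UTR) it is known to hold back translation, and in the 3′ UTR of *Tfrc* to protect the mRNA from decay, so that ferritin and ferroportin protein can change without a change of the RNA counted here. A search of annotated UTRs on the sense strand looked for C, 5 bases, CAGTG, a base other than G, and 5 bases that pair with the 5 before the loop, G-T pairs included. It found the pattern in 4 of the 9 genes and in 160 of 21575 protein-coding genes (0.742%). The pattern is strict, so a gene without a match is not shown to lack an iron-responsive element. The windows below are shown because iron-responsive elements are a known control site of these genes; they are read 5′ to 3′ from the sense strand of GRCm39 with GENCODE annotation, with the bulged C and the CAGTGN loop in capitals; a match is a description of the letters and not a measurement of binding. They lie in the 5′ UTR of *Fth1* (chr19:9960096-9960124, plus strand), of *Ftl1* (chr7:45109203-45109231, minus strand) and of *Slc40a1* (chr1:45964625-45964653, minus strand). The last is the first of 4 matches in the 3′ UTR of *Tfrc* (chr16:32450037-32450065, plus strand).
Fth1: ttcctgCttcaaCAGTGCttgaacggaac
Ftl1: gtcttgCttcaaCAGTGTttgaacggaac
Slc40a1: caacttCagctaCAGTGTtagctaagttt
Tfrc: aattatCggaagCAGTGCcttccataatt

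Libraries held 761481 to 3296398 counts, those of neurons 761481 to 2017932 and those of astrocytes and microglia 2118317 to 3296398. Levels are counts per 1000000 (CPM) after TMM scaling over all 18 libraries, and at most 3 counts in a library are treated as the floor, which lay at 0.863 to 1.53 CPM in the glial and 1.92 to 3.99 CPM in the neuronal libraries. Changes were tested with the quasi-likelihood test of edgeR and Benjamini-Hochberg adjustment over all genes of a fit, and a gene is named as called where its adjusted *p* was 0.05 or less and its log2 fold change 1 or more in size. Between KIN and WT, 285 genes were higher and 755 lower in astrocytes, and 80 higher and 85 lower in microglia; with library totals in place of TMM the split was 38 against 1587 and 78 against 48. In microglia DESeq2 called 41 higher and 7 lower, and edgeR called 35 to 452 genes with 1 library left out. Of the summed markers, 7 microglia markers stood at 452 to 774 CPM in the microglia fraction and at 6.62 to 17.0 CPM elsewhere, and 7 astrocyte markers at 280 to 657 CPM in the astrocyte fraction and at most 23.7 CPM elsewhere. The astrocyte fraction also held oligodendrocyte markers at 436 to 803 CPM, which exceeded the astrocyte markers in all its libraries but WT replicate 1. In the neuron fraction 7 neuron markers summed to 101 to 165 CPM, and in each of its libraries they were exceeded by choroid plexus markers: the transthyretin gene *Ttr* and 3 other choroid plexus markers summed to 157 to 472 CPM. *Ttr* alone had a mean of 234 CPM in the WT and 339 CPM in the KIN libraries of that fraction, and so made up most of these sums. There 7 red blood cell genes summed to 112 to 516 CPM. WT replicate 2 of the neuron fraction stood apart with 274 CPM of oligodendrocyte markers, against 22.6 to 44.5 CPM in the other 5 neuronal libraries. *Atxn2* itself was at 3.24 to 12.2 CPM in every library; reads near its 3′ end do not check the repeat.

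**Figure D1:**
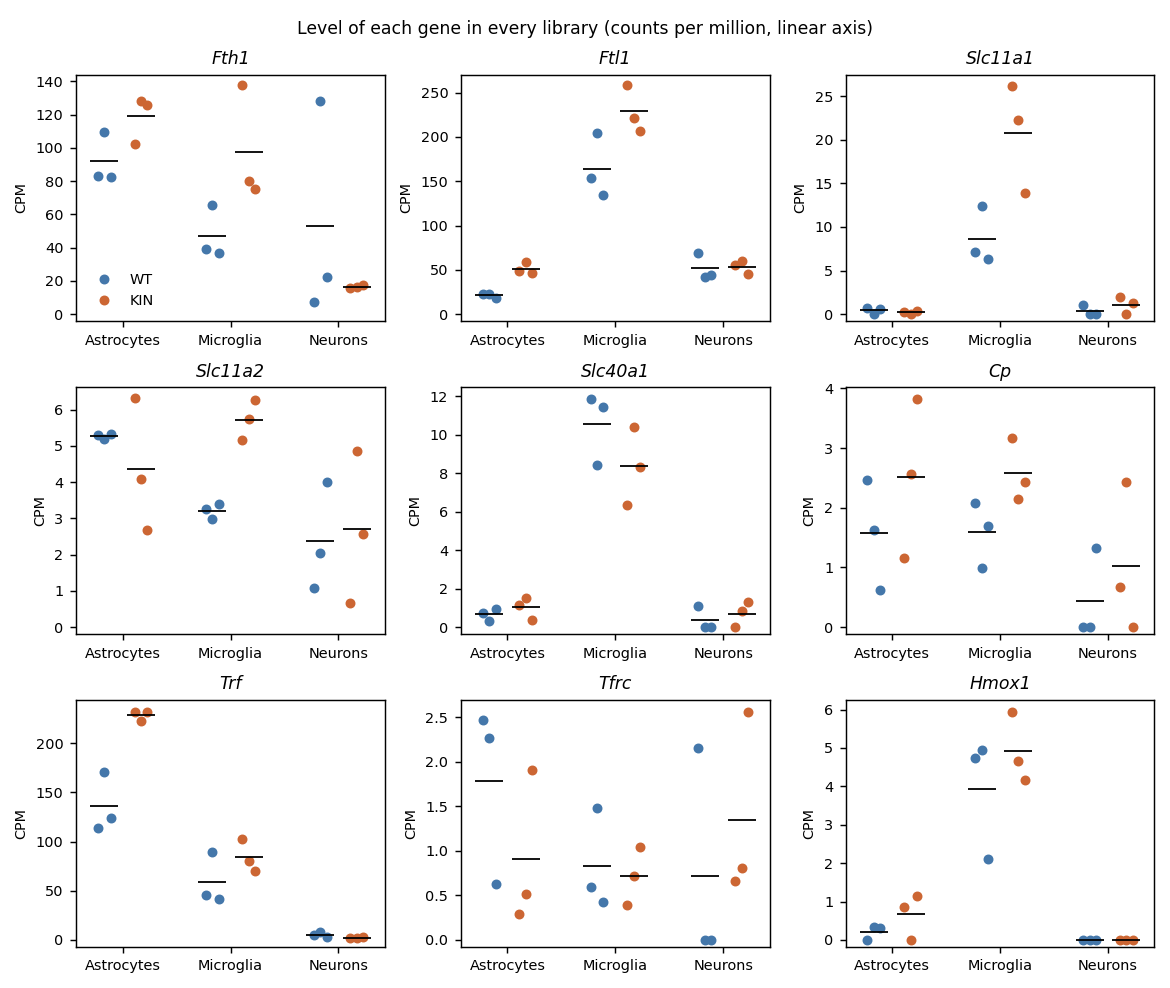
Level of each of the 9 genes in all 18 libraries, in CPM on linear axes that differ between panels; points are libraries, blue WT and orange KIN, and bars are means of 3. *Ftl1*, *Slc11a1*, *Slc40a1* and *Hmox1* stood highest in microglia, *Trf* in astrocytes, and 1 WT neuronal library reached 128 CPM of *Fth1*.

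Of the ferritin genes, the light chain was called higher in KIN astrocytes and the heavy chain, less firmly, in KIN microglia, while the light chain in microglia and the heavy chain in astrocytes were not called. *Ftl1* (ENSMUSG00000050708, chr7:45107367-45109308, minus strand), the light chain, had 66, 70 and 58 reads in WT astrocytes and 170, 116 and 120 in KIN astrocytes, or 21.4 ± 2.81 against 51.4 ± 7.05 CPM (SD, n = 3). All KIN libraries lay above all WT libraries, and the gene rose 2.37-fold (log2 fold change 1.24, SE 0.216, adjusted *p* = 6.15e-05). Of the 6 tested members it alone was called in astrocytes, where 8.85% of all 11751 genes tested were called and 2.43% were called higher. With library totals the log2 fold change was 0.80 (adjusted *p* = 0.0393) and no longer called, while the median of all genes moved to -0.42, which leaves *Ftl1* 1.23 above that median. In microglia *Ftl1* was at 154, 204 and 134 CPM in WT and at 258, 221 and 207 CPM in KIN. The groups did not overlap, but the log2 fold change of 0.48 (SE 0.230, adjusted *p* = 0.400) was not called. In neurons *Ftl1* was at 42.0 to 69.1 CPM in WT and at 44.9 to 59.9 CPM in KIN, and the groups overlapped (log2 fold change -0.17, SE 0.256, adjusted *p* = 0.975).

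*Fth1* (ENSMUSG00000024661, chr19:9957911-9962462, plus strand), the heavy chain, had 131, 133 and 87 reads in WT microglia and 347, 223 and 217 in KIN microglia, or 47.2 ± 16.2 against 97.6 ± 34.6 CPM (SD, n = 3). The groups did not overlap, KIN replicate 1 was the highest at 138 CPM, and the gene rose 2.08-fold (log2 fold change 1.06, SE 0.271, adjusted *p* = 0.0431). This call lay close to the threshold. It was lost without WT replicate 1 (adjusted *p* = 0.258), WT replicate 3 (0.300), KIN replicate 1 (0.333, log2 fold change 0.72), KIN replicate 2 (0.104) or KIN replicate 3 (0.0829), and it held without WT replicate 2 (log2 fold change 1.35, adjusted *p* = 0.000456). The adjusted *p* was also above 0.05, at 0.0507 with all 18 libraries in 1 fit, 0.0577 with the replicate number as a block (log2 fold change 1.05), 0.0595 with a mean of at least 10 counts and 0.0925 with the most-read transcript. In astrocytes *Fth1* was at 83.2, 110 and 82.6 CPM in WT and at 102, 128 and 126 CPM in KIN. The groups overlapped and the log2 fold change of 0.35 (SE 0.212, adjusted *p* = 0.305) was not called; it was -0.09 with library totals.

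In neurons *Fth1* had 7, 125 and 17 reads in WT and 24, 20 and 27 in KIN. The WT libraries thus ran from 7.56 to 128 CPM around a KIN range of 16.0 to 17.3 CPM. The log2 fold change of -1.88 (SE 0.503, adjusted *p* = 0.269) became -0.09 (adjusted *p* = 0.984) without WT replicate 2, the library that also held 274 CPM of oligodendrocyte markers; their part in the result was not tested. The call also depended on the fit, at an adjusted *p* of 1.74e-05 without a filter on low counts, 0.0103 with all 18 libraries in 1 fit and 0.00158 without WT replicate 1.

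Within a library, the number of *Fth1* reads per *Ftl1* read needs no scaling between libraries. It was 3.58, 4.83 and 4.55 in WT astrocytes and 2.09, 2.16 and 2.74 in KIN astrocytes. In microglia it was 0.253, 0.323 and 0.275 in WT and 0.532, 0.361 and 0.365 in KIN. All 3 KIN libraries therefore lay below the WT libraries in astrocytes and above them in microglia, and astrocytes lay above microglia in every library of both genotypes. In neurons the ratio ran from 0.109 to 3.05 in WT and from 0.270 to 0.386 in KIN, with the 3.05 again in WT replicate 2. Reads are not corrected for transcript length, so the ratio compares libraries and says nothing of how many heavy and light chains a cell makes.

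**Figure D2:**
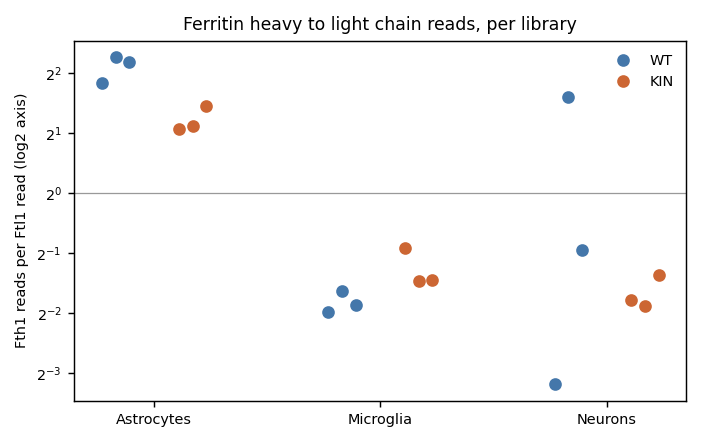
Reads of *Fth1* per read of *Ftl1* in each of the 18 libraries, on a log2 axis; points are libraries, blue WT and orange KIN, and the grey line marks equal numbers. Astrocytes ran from 2.09 to 4.83 and microglia from 0.253 to 0.532, with KIN below WT in the former and above WT in the latter.

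Both ferritin genes have near-identical processed copies in the mouse genome. The 12 other symbols that start with Fth took 10 reads, 0.318% of the reads of the heavy chain family, whereas 3 other Ftl symbols took 839 reads beside 4075 of *Ftl1* (17.1%), most of them under *Ftl1-ps1*. The aligner places a read that fits several copies at 1 of them, so the division of reads between *Ftl1* and *Ftl1-ps1* is uncertain. With the copies added in, the log2 fold changes were 1.24 for the light chain in astrocytes (adjusted *p* = 5.67e-05) and 1.06 for the heavy chain in microglia (adjusted *p* = 0.0408). The reads were spread over 9 transcripts of *Fth1* and 6 of *Ftl1*; the *Ftl1* transcript with the most reads gave a log2 fold change of 1.83 (adjusted *p* = 2.26e-05) in astrocytes.

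*Slc11a1* (ENSMUSG00000026177, chr1:74414303-74425448, plus strand), the phagosomal metal transporter, was found almost entirely in the microglia fraction and was higher there in KIN. It had 24, 25 and 15 reads in WT microglia and 66, 62 and 40 in KIN microglia, or 8.62 ± 3.27 against 20.8 ± 6.25 CPM (SD, n = 3). The groups came close, at 12.4 CPM for the highest WT and 13.9 CPM for the lowest KIN library, and did not overlap. The gene rose 2.46-fold (log2 fold change 1.30, SE 0.296, adjusted *p* = 0.0205), and with *Fth1* it made 2 of 8 tested members called in microglia, where 1.52% of all 10831 genes tested were called and 0.739% were called higher. The call was lost without WT replicate 1 (adjusted *p* = 0.200), WT replicate 3 (0.177), KIN replicate 1 (0.149) or KIN replicate 2 (0.117), with log2 fold changes of 1.09 to 1.25. It held without WT replicate 2 (1.59, adjusted *p* = 0.00102) and without KIN replicate 3 (1.52, adjusted *p* = 0.0304). Astrocytes and neurons had 0 to 3 reads of *Slc11a1* in each library, at or under the floor, and KIN was not compared with WT there.

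By transcript, *Slc11a1* had 11 entries, of which 3 had enough reads for the test in microglia. The largest number in KIN fell on Slc11a1-208 (ENSMUST00000147233, chr1:74414362-74425211, 14 exons), annotated as a transcript with a retained intron, with 5, 3 and 2 reads in WT and 25, 23 and 12 in KIN. It was at 1.27 ± 0.368 CPM in WT and 7.44 ± 2.95 CPM in KIN (SD, n = 3), and rose 5.30-fold (log2 fold change 2.4, SE 0.464, adjusted *p* = 0.00318). Slc11a1-208 had enough reads for the test only through the KIN libraries, where it was high, so this call carries no weight. The WT libraries with 3 and 2 reads were at the floor. Of the 14126 transcripts tested in microglia 0.920% were called, and 0.503% were called higher. The call was lost without KIN replicate 1 (log2 fold change 2.15, adjusted *p* = 0.0931), and DESeq2 gave a log2 fold change of 2.46 (SE 0.679) but no adjusted *p* at this depth.

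The transcript of the canonical protein-coding form, Slc11a1-201 (ENSMUST00000027368, chr1:74414303-74425448, 15 exons), had 10, 6 and 6 reads in WT and 17, 13 and 13 in KIN. These did not overlap either, but the log2 fold change of 0.81 (SE 0.397, adjusted *p* = 0.453) was not called. A second retained-intron form, Slc11a1-203 (ENSMUST00000131511, chr1:74414384-74425210, 12 exons), had 4, 11 and 3 reads in WT and 14, 10 and 4 in KIN, which overlapped (log2 fold change 0.46, SE 0.522, adjusted *p* = 0.873). The share of all *Slc11a1* reads that fell on Slc11a1-208 was 20.8%, 12.0% and 13.3% in the WT libraries and 37.9%, 37.1% and 30.0% in the KIN libraries. Pooled, it was 10 of 64 reads in WT (15.6%, 95% Wilson interval 8.71 to 26.4%) and 60 of 168 in KIN (35.7%, 28.9 to 43.2%), intervals that cover counting error only. The 4 retained-intron transcripts together held 32 of 64 reads in WT (interval 38.1 to 61.9%) and 92 of 168 in KIN (47.2 to 62.1%), with overlapping intervals. All other *Slc11a1* transcripts together were at 7.35 ± 3.07 CPM in WT and at 13.3 ± 3.30 CPM in KIN (SD, n = 3). The 11 transcripts overlap each other on the genome, and a read that fits more than 1 of them was placed at 1, so the division of reads between them is less certain than their sum.

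**Figure D3:**
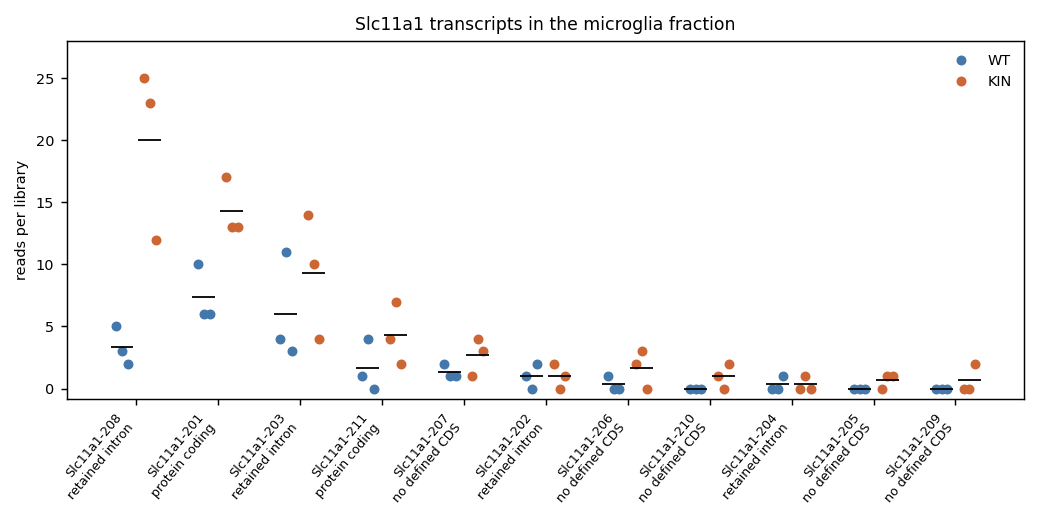
Reads of each of the 11 *Slc11a1* transcripts in the 6 microglia libraries (counts, linear axis), named and classed as in the annotation; points are libraries, blue WT and orange KIN, and bars are means of 3. Slc11a1-208 had 2 to 5 reads in WT and 12 to 25 in KIN, and 8 of the 11 transcripts had too few reads for the test.

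*Slc11a2* (ENSMUSG00000023030, chr15:100285776-100322953, minus strand), the endosomal importer DMT1, had 11, 6 and 8 reads in WT microglia and 13, 16 and 18 in KIN microglia, or 3.21 ± 0.216 against 5.71 ± 0.555 CPM (SD, n = 3). The groups did not overlap, and the log2 fold change of 0.82 (SE 0.354, adjusted *p* = 0.320) was not called. In astrocytes it was at 5.19 to 5.32 CPM in WT and at 2.68 to 6.33 CPM in KIN (log2 fold change -0.23, SE 0.346, adjusted *p* = 0.747). The neuronal libraries held 1 to 6 reads and were not tested.

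*Slc40a1* (ENSMUSG00000025993, chr1:45947211-45965683, minus strand), the exporter ferroportin, had 40, 17 and 27 reads in WT microglia and 16, 29 and 24 in KIN microglia, or 10.6 ± 1.89 against 8.36 ± 2.02 CPM (SD, n = 3). The groups overlapped (log2 fold change -0.35, SE 0.277, adjusted *p* = 0.727). Outside microglia it had 0 to 4 reads in each library. *Cp* (ENSMUSG00000003617, chr3:20011090-20063930, plus strand), the ferroxidase ceruloplasmin, was low everywhere. It was at 0.990 to 2.08 CPM in WT and 2.15 to 3.17 CPM in KIN microglia, 2 to 8 reads a library, and the groups did not overlap (log2 fold change 0.62, SE 0.528, adjusted *p* = 0.761). Its read counts there did overlap, and *Cp* had enough reads for this test only through the KIN libraries. In astrocytes it had 2 to 10 reads and the groups overlapped (log2 fold change 0.61, SE 0.570, adjusted *p* = 0.564), and in neurons it had 0 to 3 reads.

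*Trf* (ENSMUSG00000032554, chr9:103081200-103107814, minus strand), transferrin, had 323, 525 and 397 reads in WT astrocytes and 807, 436 and 607 in KIN astrocytes, or 136 ± 30.1 against 229 ± 5.29 CPM (SD, n = 3). KIN lay above WT without overlap, by 1.66-fold. The log2 fold change of 0.73 (SE 0.218, adjusted *p* = 0.0184) passed the adjusted *p*, as 11.9% of all genes tested did, but not the fold threshold. The adjusted *p* was 0.428 with library totals (log2 fold change 0.31, or 0.73 above the median of all genes), and 0.157, 0.140 and 0.0982 without WT replicate 1, WT replicate 3 and KIN replicate 3. In microglia *Trf* was at 45.4, 89.1 and 42.0 CPM in WT and at 102, 80.2 and 70.3 CPM in KIN, which overlapped (log2 fold change 0.53, SE 0.267, adjusted *p* = 0.447). In neurons it had 5, 8 and 2 reads in WT and 3, 3 and 4 in KIN. These read counts overlapped, and 3 of the 6 libraries were at the floor. In CPM the KIN libraries were at 1.99 to 2.56 and the WT libraries at 2.66 to 8.19, and the log2 fold change of -1.42 (SE 0.697, adjusted *p* = 0.970) was not called. *Trf* had enough reads for this test only through the WT libraries.

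The astrocyte fraction also held oligodendrocyte RNA, which moved with genotype. The 7 oligodendrocyte markers, all of them detected, summed to 436 to 691 CPM in WT and 786 to 803 CPM in KIN astrocyte libraries. All 7 had log2 fold changes above 0, and *Mog* (1.27, adjusted *p* = 0.000108) and *Cnp* (1.12, adjusted *p* = 0.000309), both myelin genes, were called, where 2.43% of all genes tested were called higher. The 7 astrocyte markers stood at 444 to 657 CPM in WT and at 280 to 290 CPM in KIN. The 7 neuron markers, all detected, summed to 37.3 to 109 CPM in WT and 31.7 to 52.4 CPM in KIN, which overlapped; 5 of them were called lower, where 6.42% of all genes tested were, and their median log2 fold change was -2.26. The 4 choroid plexus markers, all detected, were at 80.2 to 98.3 CPM in WT and 107 to 219 CPM in KIN, and the 3 ependyma markers, all detected, at 20.8 to 23.5 CPM and 37.4 to 43.5 CPM. *Ttr* alone had means of 81.2 CPM in WT and 156 CPM in KIN, most of the choroid plexus sums. In the other direction, macrophage markers, 5 of 6 detected in each genotype, were at 5.52 to 10.0 CPM in WT and 1.02 to 3.45 CPM in KIN, and microglia markers, 5 of 7 detected in WT and 6 of 7 in KIN, at 11.7 to 16.0 CPM and 6.62 to 11.9 CPM. Their part in the values of *Trf* and *Ftl1* was not tested. In the microglia fraction, where *Trf* was at 42.0 to 102 CPM, the 7 oligodendrocyte markers stood at 18.4 to 19.0 CPM in KIN and at 30.7 to 33.8 CPM in WT, without overlap.

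**Figure D4:**
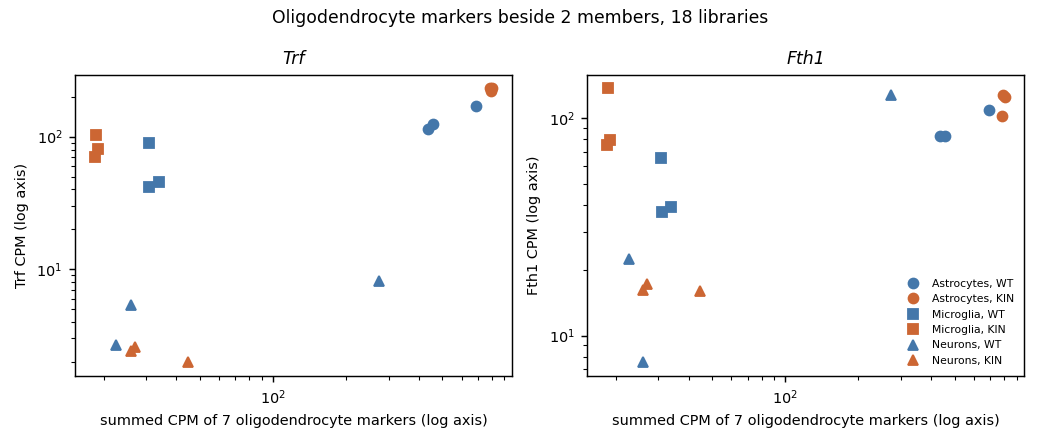
*Trf* (left) and *Fth1* (right) in CPM against the summed CPM of 7 oligodendrocyte markers in the 18 libraries, log axes; circles are astrocyte, squares microglia and triangles neuron libraries, blue WT and orange KIN. Astrocyte libraries lay at 436 to 803 CPM of markers, and among neuronal libraries only WT replicate 2 (274 CPM) lay outside 22.6 to 44.5 CPM.

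*Tfrc* (ENSMUSG00000022797, chr16:32427556-32451612, plus strand), the transferrin receptor, was near the floor in all libraries. It had 7, 7 and 2 reads in WT and 1, 1 and 5 in KIN astrocytes, which overlapped (log2 fold change -0.99, SE 0.754, adjusted *p* = 0.454), and 0 to 4 reads elsewhere. *Hmox1* (ENSMUSG00000005413, chr8:75820241-75827217, plus strand), heme oxygenase 1, had 16, 10 and 5 reads in WT microglia and 15, 13 and 12 in KIN microglia, or 3.94 ± 1.58 against 4.93 ± 0.916 CPM (SD, n = 3). The groups overlapped (log2 fold change 0.30, SE 0.376, adjusted *p* = 0.869). It had 0 to 3 reads in astrocytes and 0 in all 6 neuronal libraries.

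Counted over the list, KIN lay above WT without overlap for 5 of the 8 tested members in microglia (*Fth1*, *Ftl1*, *Slc11a1*, *Slc11a2* and *Cp*), where this held for 8.49% of all genes tested, and for 2 of 6 in astrocytes (*Ftl1* and *Trf*), where it held for 13.8%. In microglia *Cp*, with 2 to 8 reads a library, had enough reads for the test only through the KIN libraries, so it carries no weight in this count. In neurons KIN lay below WT for 1 of 3 (*Trf*), against 2.20% of all genes. *Trf* had enough reads for the test there only through the WT libraries, where it was high, so this count carries no weight. Those libraries held 2 to 8 reads of *Trf*, in part at the floor, the read counts themselves overlapped, and the change was not called. The median log2 fold change of the tested members was 0.48 in astrocytes, 0.57 in microglia and -1.42 in neurons, beside medians of all genes of -0.0051, -0.0037 and 0.038. With 3 members tested in neurons, that median is the value of *Trf*. In neurons 0 of the 3 tested members were called by edgeR, where 0.0148% of 6765 genes tested were called, 1 (*Fth1*) had an unadjusted *p* of at most 0.05, as 5.04% of all genes did, and DESeq2 called 0. The microglia fraction held 452, 774 and 472 CPM of microglia markers in WT and 529 to 601 CPM in KIN, neuron markers of 13.4 to 49.6 CPM in WT and 6.61 to 8.32 CPM in KIN, and 6 macrophage markers, all detected, of 10.9 to 15.1 CPM in WT and 15.9 to 19.5 CPM in KIN. Neutrophil markers, 4 of 4 detected in WT and 3 of 4 in KIN, were at 55.9 to 70.8 CPM in WT and 23.7 to 97.8 CPM in KIN. The part of these in the microglial values was not tested.

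**Figure D5:**
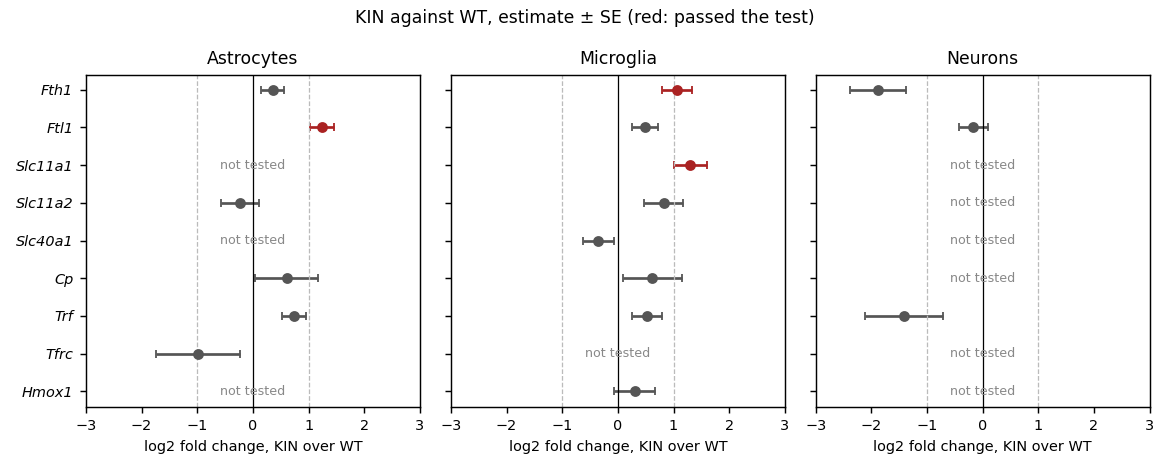
Log2 fold change of KIN over WT for each gene in each fraction, with its SE; the axis is in log2 units, dashed lines mark log2 fold changes of -1 and 1, red marks genes that passed the test and "not tested" those with too few reads. *Ftl1* (1.24) passed in astrocytes, *Fth1* (1.06) and *Slc11a1* (1.30) passed in microglia, and none passed in neurons.

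Whether the KIN effect differed between the glial fractions was tested as an interaction over their 12 libraries. Of 13277 genes tested 1.17% were called and 13.2% had an unadjusted *p* of at most 0.05. edgeR called no member, but *Slc11a1* with 0 to 2 reads in each astrocyte library, *Slc40a1* with 1 to 4 and *Hmox1* with 0 to 3, and *Tfrc* with 1 to 3 in each microglia library, had too few reads in 1 fraction to bear on the question, so that no count of members is set against these shares. For *Ftl1* the effect in microglia minus that in astrocytes was -0.77 (SE 0.341, adjusted *p* = 0.304), for *Fth1* 0.70 (SE 0.351, adjusted *p* = 0.378) and for *Slc11a2* 1.04 (SE 0.519, adjusted *p* = 0.375). Each of these 3 had an unadjusted *p* of at most 0.05. For *Trf* it was -0.21 (SE 0.354, adjusted *p* = 0.860), and *Cp* had 2 to 10 reads in each library. Over all genes 103 were called higher and 52 lower, against 142 and 4 with library totals. DESeq2 called none of *Ftl1*, *Fth1* and *Trf* and gave *Slc11a2* no adjusted *p*. For *Ftl1* the adjusted *p* over the other settings ran from 0.0470 to 0.916, the lowest with only the transcript of highest mean count (-1.56). The call of *Ftl1* in astrocytes and not in microglia was thus not shown to differ between fractions by the main test, and for *Slc11a1* the difference could not be judged at this depth.

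Levels were also compared between fractions. In the WT libraries, fitted together, 25.1% of 12305 genes tested were called between microglia and astrocytes, 12.0% higher and 13.1% lower, 18.0% between neurons and astrocytes, and 16.9% between neurons and microglia, 11.7% lower. *Ftl1* and *Trf* were called in all 3 comparisons. *Slc11a1*, *Slc40a1* and *Hmox1* had enough reads for the test only through the microglia libraries, so that their calls there carry no weight, and no count of called members is set against these shares. Over all genes 1472 were higher and 1614 lower in microglia than in astrocytes, against 750 and 2565 with library totals, and 741 were higher and 1476 lower in neurons than in astrocytes, against 338 and 2574. *Ftl1* was highest in microglia, by 2.96 on the log2 scale over astrocytes (SE 0.336, adjusted *p* = 1.92e-13), and lower in neurons than in microglia by -1.65 (SE 0.329, adjusted *p* = 3.94e-05). It was higher in neurons than in astrocytes by 1.31 (SE 0.340, adjusted *p* = 0.00212). This last difference was 1.05 (adjusted *p* = 0.0501) without neuronal WT replicate 1, 0.75 (adjusted *p* = 0.118) with library totals, and 0.01 (adjusted *p* = 0.993) between the KIN libraries, where astrocytes were at 45.9 to 59.4 and neurons at 44.9 to 59.9 CPM.

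*Trf* fell from astrocytes over microglia (-1.20, SE 0.318, adjusted *p* = 0.00176) to neurons (-4.56 against astrocytes, SE 0.435, adjusted *p* = 2.69e-17, and -3.37 against microglia, SE 0.439, adjusted *p* = 1.73e-10). Its difference between microglia and astrocytes was -0.96, under the fold threshold, without astrocyte WT replicate 2 and also without microglial WT replicate 3. *Fth1* was lower in microglia than in astrocytes by -0.94 (SE 0.354, adjusted *p* = 0.0351), just under the fold threshold. It was called with library totals (-1.62, adjusted *p* = 0.00026), with the most-read transcript (-1.74), without astrocyte WT replicate 1 (-1.04) and without microglial WT replicate 2 (-1.22). DESeq2 gave -0.94 with an adjusted *p* of 0.539, and in the KIN libraries, which overlapped, it was -0.28 (adjusted *p* = 0.272). For *Fth1* neither neurons against astrocytes (-0.76, SE 0.365, adjusted *p* = 0.142) nor neurons against microglia (0.19, SE 0.370, adjusted *p* = 0.787) was called. Neurons against astrocytes was called with library totals (-1.31, adjusted *p* = 0.00611) and with the replicate number as a block (-1.22, adjusted *p* = 0.00248). Without neuronal WT replicate 2 the differences from astrocytes and from microglia were -2.59 (adjusted *p* = 7.28e-07) and -1.64 (adjusted *p* = 0.00362), and the KIN libraries gave -2.89 (adjusted *p* = 2.97e-20) and -2.61 (adjusted *p* = 2.34e-17).

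*Slc11a1*, *Slc40a1* and *Hmox1* lay higher in every microglia library than in every other library of the same genotype. For *Hmox1*, microglial WT replicate 3 was at 2.12 CPM, under the mean floor of 3.43 CPM in the neuronal WT libraries, so its place above those is not settled. With so few reads outside microglia no test is given, and the size is given as the ratio of summed CPM with its 95% exact interval for counting error. Against astrocytes the WT ratio was 18.8 (7.00 to 71.2) for *Slc11a1*, 16.5 (7.26 to 46.1) for *Slc40a1* and 18.2 (4.64 to 157) for *Hmox1*. In KIN it was 82.5 (22.5 to 687), 8.47 (4.07 to 20.4) and 6.55 (2.76 to 18.9). Against neurons the ratio was 21.9 (3.80 to 879) in WT and 17.6 (7.41 to 55.0) in KIN for *Slc11a1*, and 28.8 (5.03 to 1150) and 12.1 (3.96 to 60.0) for *Slc40a1*. *Hmox1* was at least 1.15-fold higher in microglia than in neurons in WT and at least 2.33-fold higher in KIN, with the neuronal libraries set to 3 counts each. *Slc11a2*, *Cp* and *Tfrc* were called in none of the 3 comparisons by edgeR, and neighbouring fractions overlapped in both genotypes except that WT astrocytes lay above WT microglia for *Slc11a2*. Of these, *Cp* kept the order microglia, astrocytes, neurons by mean in WT and KIN, and the order of *Slc11a2* and *Tfrc* differed between the genotypes.

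Over the 18 libraries, the genes whose log2 CPM was most like that of a member were named by Pearson's *r* among 4998 genes with a mean of at least 10 counts; the libraries share fractions and depth, so *r* is a description. *Ftl1* was closest to its processed copy *Ftl1-ps1* (0.986), then *Ssh2* (0.957) and *B2m* (0.947). *Slc11a1* was closest to *Lag3* (0.970), *Tyrobp* (0.959) and *Ltc4s* (0.957). *Fth1* was closest to *Lap3* (0.916), *mt-Nd1* (0.895) and *4931406C07Rik* (0.892), and *Trf* to *Grip2* (0.969), *Msh4* (0.959) and *Adap1* (0.957). The other 5 members had a mean under 10 counts.

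The wider pathway was read from 5 lists with 52 genes in all: heme synthesis (8), heme uptake, export and breakdown (12), iron uptake, reduction and export (13), iron sensing and ferritin turnover (10), and mitochondrial iron and iron-sulfur clusters (9). edgeR called 0 of 38 tested in astrocytes, 0 of 38 in microglia and 0 of 19 in neurons. An unadjusted *p* of at most 0.05 was reached by 8, 4 and 2 of them, beside 24.9%, 12.0% and 5.04% of all genes tested, and DESeq2 called 0 among the 26, 2 and 19 to which it gave an adjusted *p*. Their median log2 fold change was 0.15 in astrocytes, 0.06 in microglia and 0.24 in neurons. In astrocytes 2 of the 38 passed the adjusted *p* but not the fold threshold, while 11.9% of all genes tested passed the adjusted *p*. *Slc48a1*, which carries heme out of endosomes, was at 28.2 to 44.5 CPM in WT and 55.3 to 62.0 CPM in KIN (log2 fold change 0.77, SE 0.213, adjusted *p* = 0.0108). *Cpox*, an enzyme of heme synthesis, was at 10.4 to 12.3 CPM in WT and 16.9 to 19.6 CPM in KIN (log2 fold change 0.68, SE 0.237, adjusted *p* = 0.0475). Both lay higher in every KIN library than in every WT library, as 13.8% of all genes tested in astrocytes did.

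Other genes of these lists with high mean counts were not called in any fraction. *Fech*, which puts iron into heme, had log2 fold changes of -0.63 in astrocytes (adjusted *p* = 0.0630), -0.07 in microglia and 0.01 in neurons. *Lrp1*, an endocytic receptor that takes up heme bound to hemopexin, was at -0.34, 0.32 and 0.39. *Slc22a17*, a receptor for lipocalin, was at 0.56 (adjusted *p* = 0.0632), 0.12 and 0.59, and the endolysosomal channel *Mcoln1* at 0.18, 0.05 and -0.05. Of the iron chaperones, *Pcbp2* was at 0.31, 0.06 and 0.24 and *Pcbp1* at 0.36, 0.05 and -1.99, the last with 5.32 to 10.2 CPM in WT and 1.62 to 2.66 CPM in KIN neurons (SE 0.632, adjusted *p* = 0.502). *Iscu*, the scaffold on which iron-sulfur clusters are built, was at 0.93 (adjusted *p* = 0.0662), 0.09 and 0.39.

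Of 7 NRF2 target genes, a group induced with *Hmox1* by oxidants, 5 were tested in astrocytes and 1 was called, beside 8.85% of all genes. This was the sulfiredoxin gene *Srxn1*, at no more than 1.95 CPM in WT and no less than 3.44 CPM in KIN (log2 fold change 1.48, SE 0.469, adjusted *p* = 0.0282). *Srxn1* had enough reads for the test only through the KIN libraries, where it was high, so this call carries no weight. The cystine transporter *Slc7a11* was at -0.96 (adjusted *p* = 0.0145). edgeR called 0 of 5 in microglia and 0 of 2 in neurons, where 1.52% and 0.0148% of all genes were called. An unadjusted *p* of at most 0.05 was reached by 1 and 0 of them, beside 12.0% and 5.04% of all genes. DESeq2 called 0 of the 5 in astrocytes and 0 of the 2 in neurons, and gave none of them an adjusted *p* in microglia. Of 7 red blood cell genes edgeR called 0 of 4, 1 and 4 tested in astrocytes, microglia and neurons, of which 1, 0 and 3 had an unadjusted *p* of at most 0.05, beside 24.9%, 12.0% and 5.04% of all genes. DESeq2 called 0 of the 3 and 4 to which it gave an adjusted *p* in astrocytes and neurons, and gave none an adjusted *p* in microglia. In neurons *Hba-a2* was at 95.2 to 182 CPM in WT and 41.0 to 126 CPM in KIN, and *Hbb-bs* at 69.6 to 108 and 27.6 to 81.1 CPM. Among 10 genes that respond to tissue dissociation, *Egr1* was called higher in astrocytes (10.9 to 13.6 against 27.2 to 34.8 CPM; log2 fold change 1.39, adjusted *p* = 2.48e-05) and *Hspa1a* lower in microglia (23.3 to 51.1 against 9.67 to 18.8 CPM; -1.36, adjusted *p* = 0.0134). In astrocytes, where 8.85% of all genes tested were called and 11.9% passed the adjusted *p*, *Fos* (0.97, SE 0.248, adjusted *p* = 0.00554) and *Fosb* (0.91, SE 0.240, adjusted *p* = 0.00724) passed the adjusted *p* but not the fold threshold, and 5 of the 9 tested had an unadjusted *p* of at most 0.05, beside 24.9% of all genes. *Hspa1a* was among these 5 and was lower in KIN astrocytes (log2 fold change -0.67, adjusted *p* = 0.144). Of the 9 tested, 6 had log2 fold changes above 0. The summed level of the 10 genes in astrocytes was 74.4 to 98.7 CPM in WT and 114 to 148 CPM in KIN, without overlap, in the libraries in which *Ftl1* and *Trf* were also higher in KIN. In WT all 10 were called higher in microglia than in astrocytes, where 12.0% of all genes were called higher. The part of these genes in the values of the members was not tested.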

How the data were processed

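Counts of 9 iron and heme genes were taken from 18 libraries, 3 per fraction and genotype, grouped by the sample labels alone. Each mouse gave 3 fractions, and fits across fractions treated libraries as independent. The authors depleted ribosomal RNA, added poly(A) tails, sequenced fragments at the 3′ end with molecular identifiers, trimmed with cutadapt 4.6, mapped to mm39 with Bowtie2 2.4.4 and counted with HTSeq 2.0.2, without strand and keeping reads with several possible places. The deposited values used here are whole counts per transcript, not normalized; the authors' fold change and *p* columns and 36 other per-sample columns were not used.

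Counts were summed by gene symbol. A gene needed 5 or more reads in 2 or more of a fit's libraries and was then tested with edgeR 4.0.16 (R 4.3.3) after TMM scaling, each fraction on its own 6 libraries, the interaction on 12 and the WT fractions on 9. The SE is the log2 fold change divided by the square root of F. No pair of replicates agreed within sampling noise (chi-square per degree of freedom of 1.72 to 45.6). Floors and intervals cover counting error only. Alternatives were DESeq2 1.42.0, other scalings and filters, the most-read transcript, a replicate block, other sets of libraries and each library left out.

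All 9 members are named. Of each iron, heme, NRF2, red blood cell and dissociation list the genes called between KIN and WT in a fraction, or otherwise the 2 with the highest mean count, are named; *Slc48a1*, *Cpox*, *Slc7a11*, *Fos* and *Fosb* that passed the adjusted *p* alone and *Ttr*, *Mog* and *Cnp* are named beside them, cell type markers are otherwise given as sums and counts, and 1 gene that the rule would name is not reported here. For members with a mean of at least 10 counts the 3 genes of highest *r* are given. The members and lists were chosen with earlier results of these data known.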

Additional observations from a re-analysis of the deposited data

Results flagged for a closer look

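The ratio of the KIN to the WT mean CPM of *Trf* was 1.68 in astrocytes and 0.430 in neurons, and in CPM the genotypes did not overlap in either fraction. The neuronal value rests on 2 to 8 reads a library, partly at the floor of 3 counts and overlapping as read counts, with the highest in WT replicate 2. *Trf* was not called in either fraction, and the difference between the fractions was not tested. The number of *Fth1* reads per *Ftl1* read parted the genotypes in opposite directions, with a ratio of the KIN to the WT median of 0.475 in astrocytes and 1.32 in microglia; this difference was not tested either.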

How the results depend on the processing

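Of 948 values of single genes under other settings, 888 kept their direction and their side of the threshold, 22 were no longer called, 14 became called and 24 changed sign. Too few reads left *Hmox1*, *Slc40a1*, *Slc11a1* and *Tfrc* untested in 2 of the 3 fractions and 8 of the 11 *Slc11a1* transcripts untested in microglia. Replicate numbers were not taken to pair the samples: the correlation of same-numbered deviations was -0.064 to 0.054 between WT and KIN and 0.064 to 0.209 between WT astrocytes and WT microglia, and the labels do not say which libraries share a brain; with a replicate block 264 genes were called in the interaction in place of 155, with 0 of the 9 members among them, and 0 in neurons in place of 1, *Fth1* in microglia lost its call (1.05, adjusted *p* = 0.0577), and *Fth1* in neurons against microglia was -0.22. With library totals the median of all genes moved by -0.42 in astrocytes, 0.13 in microglia, 0.52 in the interaction, -0.64 in microglia against astrocytes and -0.91 in neurons against astrocytes. In astrocytes 1040 genes were called, 401 with DESeq2 and 1625 with library totals. In microglia 165 were called, 48 with DESeq2 (41 higher and 7 lower), 276 without a filter, 95 with a mean of at least 10 counts and 58 with the most-read transcript. In neurons 1 was called, 0 with DESeq2, a mean of at least 10 counts, the most-read transcript or the newer quasi-likelihood method (chosen after seeing the data), 7 with RLE size factors, 28 without a filter and 27 with all 18 libraries. The interaction had 82 with DESeq2 and 86 with the most-read transcript. Microglia against astrocytes gave 1701 and neurons against microglia 1373 with a mean of at least 10 counts, and the KIN libraries gave 3696 for neurons against astrocytes and 3258 for neurons against microglia. Signs changed with library totals for *Fth1* in astrocytes (-0.091), *Trf* in the interaction (0.44) and *Cp* in microglia against astrocytes (-0.44). They changed with the most-read transcript for *Fth1* in astrocytes (-0.029) and *Slc11a2* in neurons against microglia (0.30), and for *Ftl1* in neurons without a filter (0.028) and with all 18 libraries (0.038). *Cp* in the interaction was -0.032 without a filter and -0.013 with TMM that left out mitochondrial genes and the 10 most abundant transcripts. In KIN libraries *Slc11a2* was 0.33 in microglia against astrocytes and *Fth1* -2.61 in neurons against microglia. With 1 library left out, calls ranged from 572 to 1528 in astrocytes, 35 to 452 in microglia, 0 to 22 in neurons, 72 to 302 in the interaction, 2486 to 3172 in microglia against astrocytes, 1694 to 2247 in neurons against astrocytes, 1651 to 2081 in neurons against microglia and 0 to 1 among *Slc11a1* transcripts. Leaving out 1 library also changed signs, for *Slc11a2* in astrocytes (-0.68 to 0.031), *Ftl1* in neurons (-0.34 to 0.063), *Trf* (-0.44 to 0.20) and *Cp* (-0.44 to 0.50) in the interaction, and *Cp* in microglia against astrocytes (-0.30 to 0.53). It did so too for *Fth1* in neurons against microglia (-1.64 to 0.70) and Slc11a1-203 (-0.0100 to 1.35). Where no value above shows it, the cause was not tested.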
